A study of Drosophila melanogaster with 4 samples.

Results

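The genes described here encode proteins of the glue that the salivary glands of Drosophila larvae make before pupation. They are 6 salivary gland secretion genes (Sgs1, Sgs3, Sgs4, Sgs5, Sgs7 and Sgs8) and 4 new-glue genes (ng1, ng2, ng3 and ng4), chosen by name. Of the 12236 genes that the platform annotation named through a probe with exactly 1 gene symbol, these were 10, each with 1 probe, and all 10 probes had a value on all 4 arrays. The study looked for messenger RNAs bound by B52, a splicing factor of the SR protein family, in the developing eye. Larvae of instar 3 carried GFP-B52 or, as controls, GFP-NLS, which is GFP with a nuclear localisation signal. The GMR driver, used to express transgenes in the developing eye, was crossed to each. Front ends of 600 larvae were pooled for each extract, GFP was immunoprecipitated, and polyadenylated RNA from the 2 precipitates was hybridised together to a two-colour array. Each of 2 replicates was run in both dye orientations, which gave 4 arrays. An array is called a Cy5 array where the B52 precipitate was labelled with Cy5, and a Cy3 array where it was labelled with Cy3. The labels do not say whether the replicates came from separate larvae, so the spread between these 2 samples could be technical. Each p-value of limma below rests on that spread and on a spread estimated over all probes or genes.

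In the last larval instar the salivary gland fills granules with glue proteins under the control of the steroid hormone ecdysone, and the animal expels the glue to fix its puparium to a surface. Sgs1, Sgs3 and Sgs4 encode large proteins with long repeats that carry many sugar chains, whereas Sgs7 and Sgs8 encode small cysteine-rich proteins related to each other and to the end of Sgs3. The new-glue genes are expressed in the same gland, and ng1 and ng2 encode closely related proteins. The salivary glands lie in the front end of the larva, so their RNA can be in these extracts although GMR was chosen for the eye.

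The deposited values are log ratios of the 2 channels, and the sources used here give neither their log base nor the direction of the ratio. The 4 columns had medians between 0.002 and 0.006. Each array was centred on its median, and the Cy5 arrays were multiplied by -1, so that a difference between the precipitates has the same sign on all arrays. Positive values stand for the side of B52 probe 13309, whose turned values lay between 0.411 and 0.510. The other 4 probes of B52 each changed sign over the turned arrays, with means of 0.13, 0.11, 0.03 and -0.33, so the sign and every direction below rest on 1 of 5 probes. Below, this side is the B52-probe side; whether an RNA on it was more abundant in the B52 or the NLS precipitate is unknown. Values were present for 14788 to 15394 of 15744 probes per array and for 13963 probes on all 4. As deposited, the dye orientations correlated across probes at r = 0.603 in replicate 1 and r = -0.140 in replicate 2. If all columns hold the same dye ratio, a difference between the precipitates gives a negative correlation and a dye effect a positive one; this reading was not tested. Signal intensities were not analysed here, so it is unknown how far above background any glue probe was, and the presence of salivary gland RNA could not be checked against a level. In extracts of many tissues, a smaller share of gland cells and less RNA per cell cannot be told apart, nor can RNA bound to B52 and RNA carried over in the precipitate.

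The glue genes did not run together. The new-glue genes ng1 and ng2 lay far on the side opposite to the B52 probe. Sgs5, Sgs7 and Sgs8 lay on the B52-probe side, though Sgs8 was just below 0 on the Cy3 array of replicate 2. Sgs1, Sgs3, Sgs4, ng3 and ng4 changed sign with the dye orientation or between arrays. None of the 10 passed limma's test of the replicate means at an adjusted p under 0.05 over all 13963 probes, as 0% of all probes did. At an unadjusted p under 0.05 were 5 of the 10, beside 12.9% of all probes. On the B52-probe side these were 3 (5.22% of all probes) and on the opposite side 2 (7.73%). The median over the 10 genes was 0 log units, beside -0.00725 over all 11173 genes, and 5 of them lay below 0, beside 54.0% of all genes. With 2 replicates the smallest p of an exact two-sided sign-flip test of 1 gene is 0.5.

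**Figure D1:**
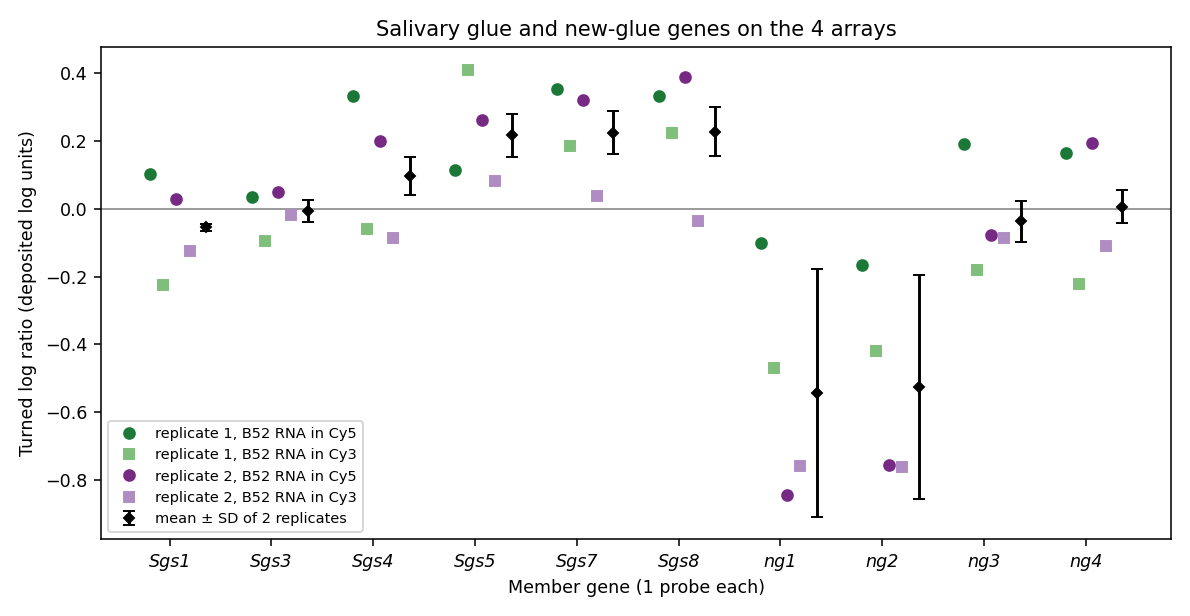
Turned log ratios (deposited log units, vertical axis) of the 10 glue genes on each of the 4 arrays; circles are Cy5 arrays, squares Cy3 arrays, green is replicate 1 and purple replicate 2. Black diamonds are means with SD of 2 replicates. All 4 arrays lie below 0 for ng1 and ng2 and above 0 for Sgs5 and Sgs7, while the circles and squares of Sgs1, Sgs3, Sgs4 and ng4 lie on opposite sides of 0.

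ng1 (CG10781, probe 14413) had the largest difference among the glue genes. Its turned values in replicate 1 were -0.101 on the Cy5 array and -0.470 on the Cy3 array, and in replicate 2 they were -0.845 and -0.759. All 4 arrays lay on the opposite side, with the Cy5 array of replicate 1 much closer to 0 than the other 3. The mean was -0.54 ± 0.37 log units (SD, n = 2), or 3.50-fold if the logs are decimal and 1.46-fold if they are binary. It was rank 14 of 13963 probes by the size of the mean, and the spread between its replicates was larger than that of nearly all probes, as 1.85% had a larger SD. In limma its adjusted p was 0.292, with a 95% interval from -0.89 to -0.20. For each probe, limma combines the spread of its 2 replicates with one estimated over all probes, weighted by 3.47 degrees of freedom. The interval of ng1 is thus not set by its own replicates alone.

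ng2 (CG14266, probe 15725) had nearly the same values. They were -0.165 and -0.420 in replicate 1, on the Cy5 and the Cy3 array, and -0.756 and -0.761 in replicate 2. Again all 4 arrays lay on the opposite side and replicate 2 lay farther out than replicate 1. The mean was -0.53 ± 0.33 log units (SD, n = 2), a 3.35-fold difference for decimal and 1.44-fold for binary logs, at an adjusted p of 0.289 in limma. On the Cy5 array of replicate 2, the deposited value of ng1 was higher than 99.95% of all values and that of ng2 higher than 99.92%. On the array of opposite dye, 0.549% and 0.542% of all values were lower. In replicate 2 the 2 genes thus went from one extreme of the array to the other when the dyes were exchanged.

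The other new-glue genes did not share this. ng3 (CG10788, probe 6428) lay at 0.192 and -0.180 in replicate 1, on the Cy5 and the Cy3 array, and at -0.077 and -0.085 in replicate 2. Only the Cy5 array of replicate 1 was above 0. The mean was -0.0375 ± 0.0615 log units (SD, n = 2; adjusted p = 0.774 in limma). ng4 (CG10789, probe 7740) lay at 0.164 and -0.221 in replicate 1 and at 0.193 and -0.110 in replicate 2, so its sign followed the dye in both replicates. Its mean was 0.0065 ± 0.0495 log units (SD, n = 2; adjusted p = 0.963 in limma). The 95% intervals, from -0.17 to 0.09 for ng3 and from -0.12 to 0.13 for ng4, leave out the means of ng1 and ng2; the differences between these genes were not tested.

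Sgs7 and Sgs8, the genes of the small cysteine-rich glue proteins, lay on the B52-probe side. Sgs7 (CG18087, probe 421) had turned values of 0.352 and 0.185 in replicate 1, on the Cy5 and the Cy3 array, and of 0.321 and 0.037 in replicate 2. All 4 were above 0, and in each replicate the Cy5 array was the higher one. Its mean was 0.22 ± 0.06 log units (SD, n = 2; adjusted p = 0.286 in limma), so 1.67-fold for decimal and 1.17-fold for binary logs. In the limma fit of the 4 arrays with a random replicate block Sgs7 passed, at an adjusted p of 0.0495, as did 3.20% of all probes. That fit counts the dye orientations of a replicate as separate values, with a correlation of -0.66 between them. Its p-values thus rest on 4 arrays and not on 2 replicate means. No other glue gene passed in that fit, where ng2 had an adjusted p of 0.0505, Sgs5 one of 0.0539, ng1 one of 0.0594 and Sgs8 one of 0.0604.

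Sgs8 (CG6132, probe 5545) lay at 0.333 and 0.223 in replicate 1, on the Cy5 and the Cy3 array, and at 0.388 and -0.037 in replicate 2. The Cy3 array of replicate 2 was just below 0 and the other 3 were above it. The mean was 0.23 ± 0.07 log units (SD, n = 2; adjusted p = 0.289 in limma). The direction of every gene rests on the turning. If all columns hold the same dye ratio, a difference between the precipitates cancels in the mean without turning, and the dye effect remains. That mean was -0.11 log units for Sgs7 and -0.13 for Sgs8. It was -0.0708 for ng1, -0.0650 for ng2 and 0.0298 for Sgs5. Under that reading its side does not bear on the direction of a gene.

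Sgs5 (CG7596, probe 10922), whose protein has no long repeats, was the other member on the B52-probe side. Its values were 0.113 and 0.410 in replicate 1, on the Cy5 and the Cy3 array, and 0.261 and 0.083 in replicate 2. All 4 arrays were above 0, with no common order of the dye orientations. The mean was 0.22 ± 0.06 log units (SD, n = 2; adjusted p = 0.292 in limma). Sgs5, Sgs7 and Sgs8 ranked 829, 759 and 735 of 13963 probes by the size of the mean. They were thus higher than 97.1%, 97.3% and 97.4% of all probes.

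The genes of the large repeat-bearing glue proteins followed the dye. Sgs4 (CG12181, probe 9282) lay at 0.332 and -0.059 in replicate 1, on the Cy5 and the Cy3 array, and at 0.199 and -0.086 in replicate 2. It was above 0 on both Cy5 arrays and below 0 on the other 2. Its mean was 0.10 ± 0.06 log units (SD, n = 2; adjusted p = 0.475 in limma). Sgs1 (CG3047, probe 8599) lay at 0.102 and -0.226 in replicate 1 and at 0.030 and -0.124 in replicate 2, the same order of the dyes. Its mean was -0.0545 ± 0.0106 log units (SD, n = 2; adjusted p = 0.636 in limma), the smallest SD among the glue genes.

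Sgs3 (CG11720, probe 7890) showed the narrowest range of the 10 genes over the 4 arrays. It lay at 0.036 and -0.095 in replicate 1, on the Cy5 and the Cy3 array, and at 0.050 and -0.017 in replicate 2. The sign again went with the dye, and the mean was -0.0065 ± 0.0325 log units (SD, n = 2; adjusted p = 0.962 in limma). Its 95% interval in limma, from -0.13 to 0.12, leaves out the means of Sgs7 and Sgs8, which lie close to it on the chromosome. It overlaps their intervals, which ran from 0.09 to 0.36 for Sgs7 and from 0.09 to 0.36 for Sgs8. The differences were not tested.

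**Figure D2:**
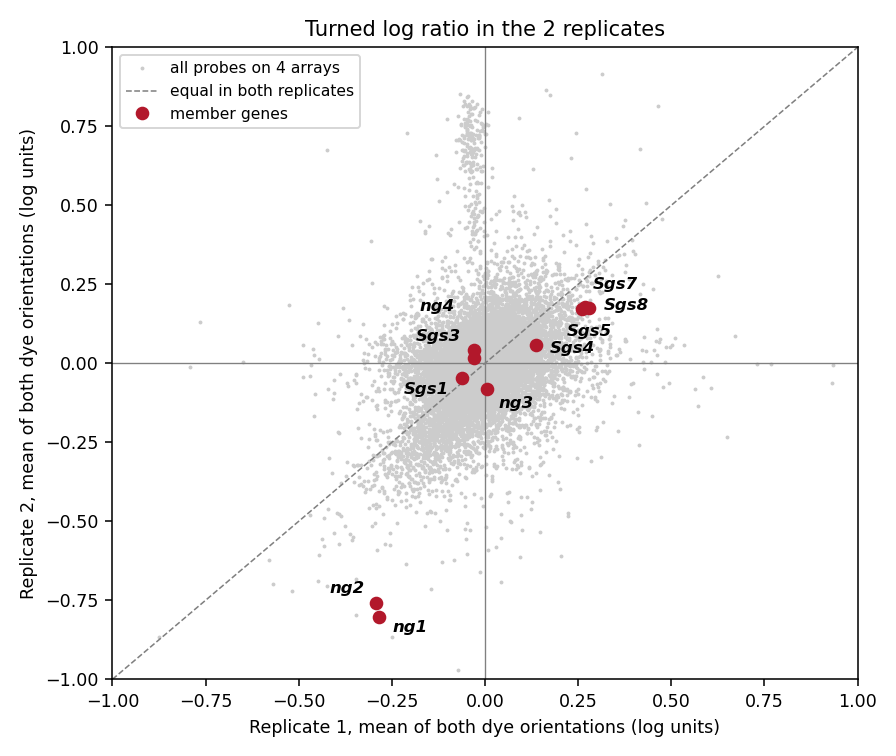
Turned log ratio in replicate 1 (horizontal) against replicate 2 (vertical), each the mean of both dye orientations in deposited log units; grey dots are all 13963 probes on 4 arrays (2 lie outside the axes), red dots the 10 glue genes and the dashed line marks equal values. Sgs5, Sgs7 and Sgs8 fall on top of each other near 0.27 and 0.18, and ng1 and ng2 lie together at the lower edge.

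Between the replicates, 7 of the 10 genes kept their sign, beside 60.8% of all probes. In replicate 1 Sgs5, Sgs7 and Sgs8 stood at 0.262, 0.269 and 0.278 log units and in replicate 2 at 0.172, 0.179 and 0.176. These 3 genes were thus higher in replicate 1 by a similar amount, whereas ng1 and ng2 went from -0.286 and -0.293 in replicate 1 to -0.802 and -0.759 in replicate 2. The replicates therefore differed in size for all 5 genes but not in direction, and for ng1 and ng2 replicate 2 set most of the mean. The genes whose sign changed between replicates, Sgs3, ng3 and ng4, had replicate means within 0.081 log units of 0.

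The variation over the 4 arrays was divided into 4 parts, namely the comparison of precipitates, the dye effect common to both replicates, the difference of the comparison between replicates, and the difference of the dye effect between replicates. The comparison held 70.5% of the mean square over the 10 genes and the common dye effect 12.0%. Over all probes these shares were 22.6% and 40.2%. Without ng1 and ng2 the comparison held 50.3% and the common dye effect 35.9% over the other 8 genes. By gene, the share of the comparison was 81.6% for ng2, 77.7% for ng1, 76.3% for Sgs7, 73.4% for Sgs5 and 65.8% for Sgs8. The common dye effect held 94.6% for ng4, 74.8% for Sgs3, 74.7% for Sgs1 and 71.1% for Sgs4. ng3 stood between, with 43.8% for the common dye effect and 40.2% for its difference between replicates.

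**Figure D3:**
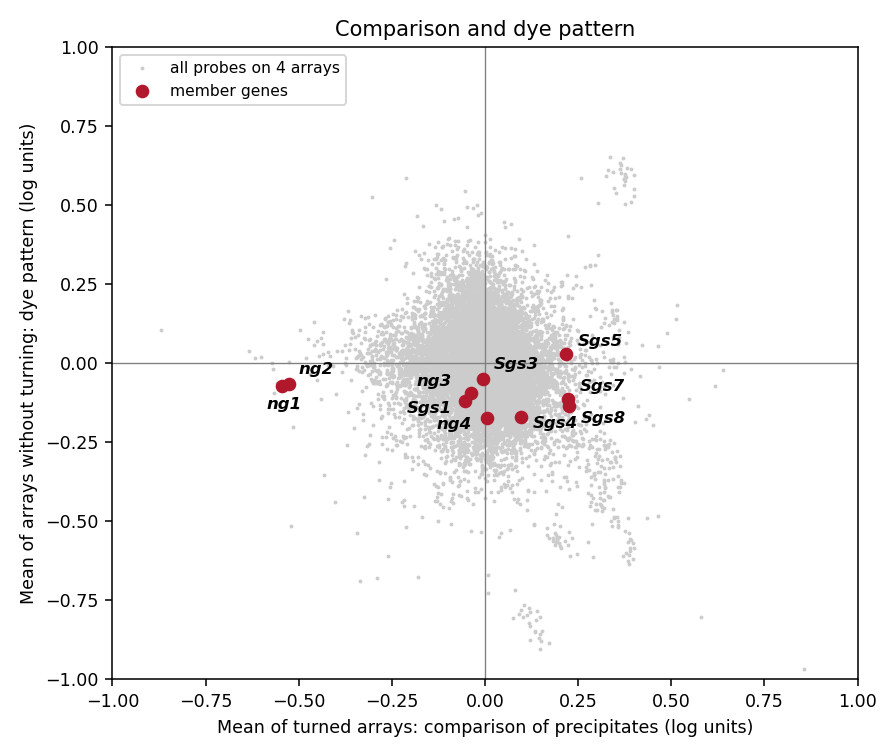
Mean of the turned arrays (horizontal, the comparison of precipitates) against the mean of the same arrays without turning (vertical, the dye pattern), both in deposited log units; grey dots are all 13963 probes on 4 arrays and red dots the 10 glue genes. ng1 and ng2 lie far left close to the horizontal line, and Sgs4 and ng4 lie lowest, at -0.17 on the dye axis.

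Counted by sign alone, 4 of the 10 genes kept 1 direction on all 4 turned arrays, beside 14.0% of all probes. They were Sgs5 and Sgs7 on the B52-probe side (5.96% of all probes) and ng1 and ng2 on the opposite side (8.04%). As many, Sgs1, Sgs3, Sgs4 and ng4, kept 1 direction on all 4 arrays before turning, beside 22.0% of all probes. All 4 of these were below 0, beside 10.6% of all probes. A distance of 0.301 log units from 0, or 2-fold for decimal logs, was reached on the same side of all 4 turned arrays by none of the 10 and by 0.143% of all probes. In replicate 2 alone ng1 and ng2 reached it. The share of all probes past the distance there is not given here, and 57.5% of all probes kept 1 direction in that replicate.

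Among the glue genes, Sgs7 with Sgs8 and ng1 with ng2 had the most similar patterns. Likeness was measured as the Euclidean distance between the turned values of 2 genes over the 4 arrays, a small distance meaning alike. Among the 11172 other genes, Sgs8 was the nearest to Sgs7 and Sgs7 the nearest to Sgs8, at a distance of 0.108 log units. ng2 was the nearest to ng1 and ng1 to ng2, at 0.121. On no array did Sgs7 and Sgs8 differ by more than 0.074 log units, nor ng1 and ng2 by more than 0.089. The distances of all 45 pairs of glue genes ran from 0.108 to 1.66, with a median of 0.576. No other glue gene had a member as its nearest gene. ng4 was at rank 2354 from ng3, at a distance of 0.276, and Sgs3 at rank 2988 from Sgs7, although its protein is related. A rank also depends on how many genes have values close by. At a similar distance of 0.279, the gene CecB was the nearest to ng1 apart from the glue genes. The member nearest to Sgs5 was Sgs7, at rank 240, and for ng4 it was Sgs1, at rank 229.

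The probe sequences were not analysed here. Whether the probes of such related genes each measured 1 RNA or both is thus not known, and ng1 with ng2, and Sgs7 with Sgs8, may not be separate measurements.

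Apart from the glue genes, the 5 genes nearest to ng1 were the antibacterial peptide gene CecB at a distance of 0.279, the kinetochore gene Mis12 at 0.327, CG30411 at 0.353, CG4151 at 0.384 and PGRP-SB2, of the peptidoglycan recognition family, at 0.419. Each was thus more than 2 times as far from ng1 as ng2 was. The 5 nearest to the mean of the 10 glue profiles were CG30484, CG14401, CG5493, the phosphodiesterase gene Pde9 and asun, at distances between 0.0276 and 0.0520. That mean profile, at 0.136 and -0.0853 in replicate 1 and at -0.0236 and -0.186 in replicate 2, lies close to 0 and describes none of the glue genes.

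Of the glue genes, 5 lie in 1 cluster on the X chromosome, inside the span annotated for dnc, a cyclic AMP phosphodiesterase gene. In assembly Release 6 the order within 20 kb is dnc, CG14265, ng2, ng3, ng1, ng4, Pig1 and Sgs4. Pig1, a salivary gland gene next to Sgs4, lay at 0.229 and 0.161 in replicate 1, on the Cy5 and the Cy3 array, and at 0.062 and 0.174 in replicate 2. It was above 0 on all 4 arrays, with a mean of 0.16 ± 0.05 log units (SD, n = 2), at an adjusted p of 0.207 in the limma fit over genes. CG14265, the neighbour of ng2 on the other side, lay at -0.112 and -0.271 in replicate 1 and at -0.332 and -0.167 in replicate 2. It was below 0 on all 4, with a mean of -0.22 ± 0.04 (SD, n = 2), at an adjusted p of 0.128 in that fit of limma. The 2 probes of dnc lay at -0.16 ± 0.23 and -0.10 ± 0.09 (SD, n = 2) and each changed sign between arrays. Along the cluster, ng3 with its mean near 0 thus lies between ng2 and ng1.

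**Figure D4:**
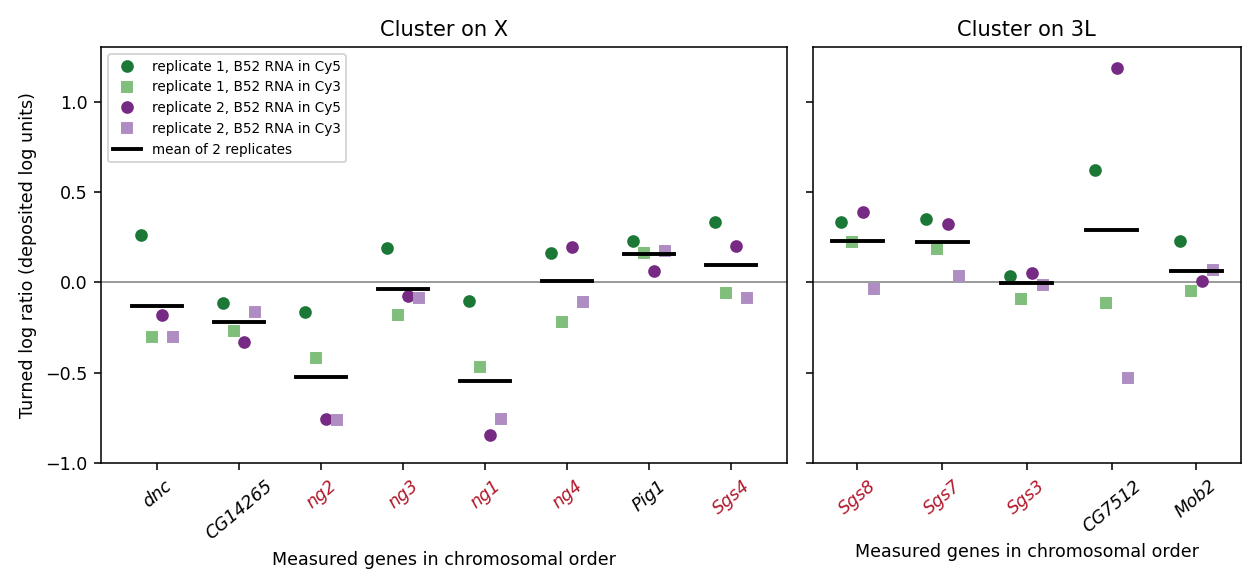
Turned log ratios (deposited log units) of the measured genes within 20 kb of a glue gene, in chromosomal order on X (left) and 3L (right); points are arrays as named in the legend, black bars the means of 2 replicates and red names the glue genes. On X, ng2 and ng1 lie lowest with ng3 between them, and on 3L Sgs8 and Sgs7 lie side by side while Sgs3 is near 0.

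On chromosome arm 3L, Sgs8 and Sgs7 lie next to each other, and CG33272, not measured, lies between Sgs7 and Sgs3. Of the 7 other genes within 20 kb there, 2 were measured on all 4 arrays. CG7512 had a mean of 0.29 ± 0.05 log units (SD, n = 2), with an adjusted p of 0.098 in limma's gene fit, but its arrays ran from -0.529 to 1.19 and followed the dye. Mob2, a gene of the Mob kinase regulator family, lay at 0.06 ± 0.04 (SD, n = 2). On 3R, Sgs5bis lies beside Sgs5 and is named for it, yet its values differed from those of Sgs5. They were -0.174 and 0.045 in replicate 1 and -0.064 and -0.011 in replicate 2, with a mean of -0.0510 ± 0.0191 (SD, n = 2), and Sgs5 was higher than Sgs5bis on all 4 arrays by 0.094 to 0.365 log units. By likeness to Sgs5, Sgs5bis was at rank 5129 of 11172. Around Sgs1 on 2L, 10 of 11 neighbours were measured, with means between -0.17 and 0.17. In all, 21 of 28 neighbours were measured, of which 12 lay above 0 and 9 below, beside 54.0% of all genes below 0.

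Genes that regulate the glue genes were taken next. Of 14 listed transcription factors of the gland and of the ecdysone response, 11 were measured, 7 of them below 0 and 4 above, with a median of -0.13 log units; of all genes 54.0% lay below 0. None passed over all genes in limma, as 0.00895% of all genes did, and 6 had an unadjusted p under 0.05, beside 15.7% of all genes, all 6 on the opposite side. The largest were Hr39, a nuclear receptor gene, at -0.24 ± 0.000354, the zinc finger gene sens, at -0.20 ± 0.03, and br, an early ecdysone-induced gene with 5 probes, at -0.15 ± 0.08 log units (SD, n = 2). The SD is that of the 2 dye-averaged replicate means, and the single arrays spread more widely. Hr39 ran from -0.479 to 0 and sens from -0.551 to 0.112. Of the 6 genes, sens, Hr4 and usp changed sign over the arrays, while br and sage stayed below 0. The gland-specific factor sage lay at -0.13 ± 0.09, and fkh, which acts with it, at 0.06 ± 0.10 (SD, n = 2). The means of these 2 factors that mark the gland thus had opposite signs, neither past the test (adjusted p = 0.315 and 0.659 over genes in limma). The sign of fkh followed the dye, at 0.132 and 0.346 on the Cy5 arrays and at -0.155 and -0.082 on the Cy3 arrays. Without turning, which leaves the dye effect if all columns hold the same dye ratio, the median of the list was 0.06.

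Of 5 other secretion genes of the gland 3 were measured, Pig1, Sgs5bis and Eig71Ee. Eig71Ee, an ecdysone-induced gene, lay at -0.30 ± 0.07 log units (SD, n = 2), with an adjusted p of 0.098 in limma's gene fit, on the side of ng1 and ng2. Of 21 genes for the glycosylation, granule maturation and release of glue, 10 were measured, 5 on each side, with a median of -0.0159. Pgant9, which encodes an enzyme that starts O-linked sugar chains, lay at -0.31 ± 0.22 and the vesicle fusion gene Syb at -0.17 ± 0.16 (SD, n = 2). The arrays of Pgant9 ran from -0.707 to 0.006 and those of Syb from -0.349 to -0.046. Of this list 2 genes, or 20%, had an unadjusted p under 0.05, near the 15.7% of all genes, and 0 had an adjusted one in limma.

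Markers of other tissues of the front end were set beside the glue genes. Of all genes, 54.0% lay below 0. Of the listed genes, 3 of 7 for larval cuticle, 4 of 8 for muscle and 4 of 8 for fat body were measured. All 8 hemocyte and all 8 eye disc markers were measured. All 3 measured genes of the larval cuticle were on the B52-probe side, at a median of 0.26 log units and a range of 0.213 to 0.268. Hemocyte markers did so in 7 of 8, with a median of 0.15 and a range of -0.10 to 0.31, and muscle markers in 3 of 4, with a median of 0.07 and a range of -0.20 to 0.19. Fat body markers, at 2 of 4 above 0 and a median of -0.0181, and eye disc markers, at 4 of 8 and a median of -0.0260, lay around 0. The largest of each list were Lcp9 at 0.27 ± 0.05, eater at 0.31 ± 0.14, Act87E at -0.20 ± 0.21, Fbp2 at 0.15 ± 0.03 and lz at -0.22 ± 0.21 (SD, n = 2). Sgs5, Sgs7 and Sgs8 thus lay within the range of the cuticle and hemocyte markers, whereas no marker of these lists was as low as ng1 or ng2. The part of these tissues in the values of the glue genes was not tested. No gene of these 5 lists passed over all genes in limma. Medians of the 8 lists kept their sign without centring and with arrays scaled alike. Those of cuticle, muscle, fat body and eye disc markers, regulators and other secretion genes changed sign without turning. That setting leaves the dye effect if all columns hold the same dye ratio.

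**Figure D5:**
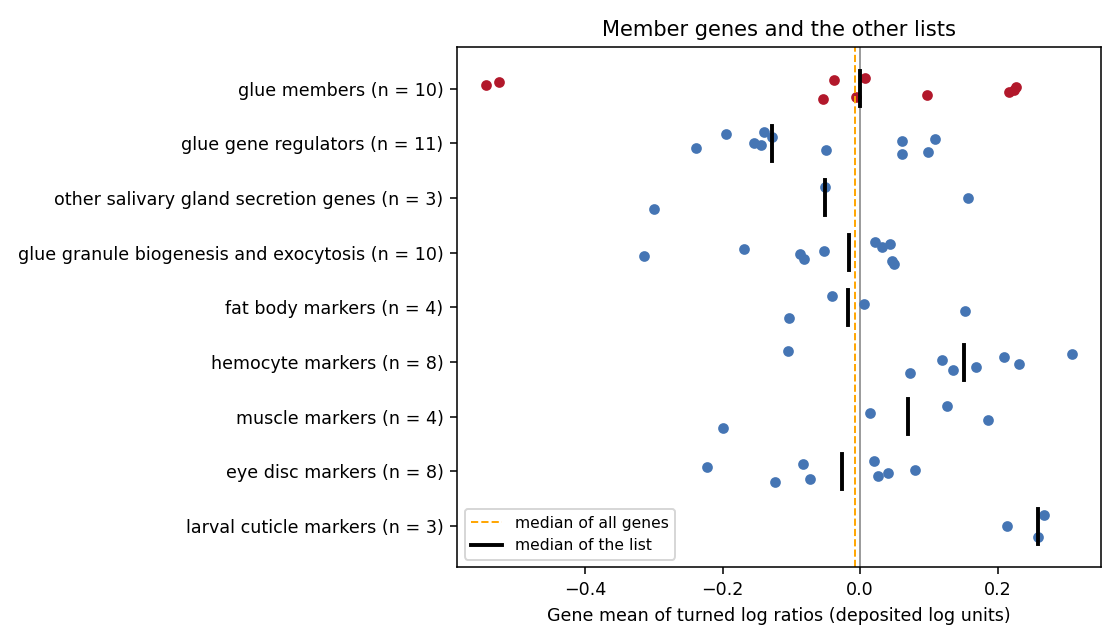
Gene means of turned log ratios (deposited log units, horizontal axis) for the glue genes (red) and 8 other lists (blue), with the number of measured genes in brackets; black bars are list medians and the dashed line the median of all genes. ng1 and ng2 lie apart on the left, and 3 glue genes lie near 0.22.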

How the data were processed

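The authors deposited 1 table of log ratios for 15744 probes on 4 two-colour arrays, which is neither a count nor an intensity. The sources used here do not give the log base, ratio direction, background correction or normalization, and 16 cells at the placeholder -10000 were treated as missing. Genes were named through the platform annotation, updated through the Entrez identifier with the RefSeq table of assembly Release 6. There were 13147 probes with 1 gene symbol, 99 with several and 2498 with none, and 12519 took the current symbol. Its positions were used only for chromosome and gene order.

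Arrays were centred on their medians, turned by dye orientation, and averaged within replicates, which share a number in the labels' titles. The sign was chosen after B52 probe values were seen. limma 3.58.1 under R 4.3.3 (lmFit, eBayes, Benjamini-Hochberg) was fitted over all 13963 probes and over 11173 gene means, and tested on simulated data. The distance of 0.301 log units is the log10 of 2, while the log base is unknown. Named were all 10 glue genes, genes within 20 kb, the 5 nearest by distance to the mean profile and to ng1, and up to 3 of the largest of each list; sage and fkh were named after their values were seen. The genes and the 8 other lists were chosen with earlier results of these data known. The number of arrays limits the precision. The alternatives tried were no turning, no centring, scaled arrays, fewer arrays per probe, left-out replicates and arrays, separate arrays, a dye term, a replicate block and robust moderation. Filters on dim probes and other background corrections were not run without intensities.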

Additional observations from a re-analysis of the deposited data

How the results depend on the processing

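Without turning, a difference between the precipitates cancels if all columns hold the same dye ratio, and the dye effect remains. Under that reading this setting does not test the direction of any gene. The means of Sgs4, Sgs7, Sgs8 and ng4 then had the other sign, at -0.17, -0.11, -0.13 and -0.17 log units. Those of ng1, ng2 and Sgs5 were -0.0708, -0.0650 and 0.0298. In that setting 9 genes lay below 0 and the median was -0.104, beside a median of 0.00675 over all genes. The share of all genes below 0 there is not given here. In limma without turning, 0 glue genes had an unadjusted p under 0.05, beside 9.94% of all probes and 5 glue genes when turned. When 1 replicate or 1 array was left out, Sgs1 lay between -0.14 and 0.0275, Sgs3 between -0.0393 and 0.0263, Sgs4 between -0.00125 and 0.19, ng3 between -0.13 and 0.0555 and ng4 between -0.0898 and 0.10, so these 5 changed sign. Sgs3 was at 0.0103 without the Cy3 array of replicate 2, and ng4 at -0.0693 without the Cy5 array of replicate 2. Sgs5, Sgs7, Sgs8, ng1 and ng2 kept their sign, with ng1 between -0.80 and -0.29 and ng2 between -0.76 and -0.29. A replicate with 1 array left out holds 1 dye orientation, so its mean includes the dye effect.

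When 1 replicate or 1 array was left out, the number of genes below 0 lay between 2 and 7, lowest without the Cy3 array of replicate 1. The median lay between -0.0645 and 0.0791. The shares of all genes below 0 in these settings are not given here. The number at an unadjusted p under 0.05 lay between 2 and 6, at 2 without the Cy5 array of replicate 2 (11.5% of all probes), at 3 without the Cy5 array of replicate 1 (4.84%) or its Cy3 array (7.33%), and at 6 without the Cy3 array of replicate 2 (9.54%). The number past the distance of 0.301 lay between 0 and 2. It was 2 without the Cy5 array of replicate 1, and also with a distance of 0.1. These looser rules are easier to pass for any probe, and the shares of all probes past them are not given here. Without the Cy5 array of replicate 1, 30.0% of all probes kept 1 direction, beside 14.0% on all 4 arrays. With a random block for the replicate number, 1 glue gene passed in limma, Sgs7 at 0.22 log units; the fit took a correlation of -0.66 between arrays of a replicate, and the block changed no other call. No glue gene passed in the other alternatives with a test. Of all probes, 0.659% passed without turning and 0.00716% with robust moderation. The cause of these differences was not tested, except that leaving out an array leaves fewer values by construction. The counts of 1 direction and of unadjusted p were added after the data were seen.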
